A study of Rattus norvegicus with 12 samples.

Results

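Annexin A3 (Anxa3), annexin A8 (Anxa8) and the scaffold protein Ahnak were measured in rat lung after an instillation of silica. The members were all array probes that the study's own probe annotation assigned to these 3 symbols. This gave 3 probes, 1 for each gene, of the 51255 probes on the array, and of the 1279 probes of 1099 genes for which that annotation gave a name here. The annotation lists probes that the authors had called differential on the arrays of day 28. The differences at day 28 therefore had a part in choosing the members, and they are given as a description without p-values. The annotation's list did not use the arrays of day 14, and the members were tested there. The 3 genes were, however, picked from that list with earlier results of these data known, those of day 14 included, so the test is not free of that choice. For that test the background share of called probes stands beside each count.

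Lung RNA came from 12 male Wistar rats, each on a separate single-colour Agilent array, on which the brightness of a spot measures the labelled RNA bound to its probe. Rats of the model groups received 1 mL of silicon dioxide at 50 mg/mL into the trachea, and rats of the control groups received 1 mL of saline. There were 4 groups of 3 rats, namely saline and silica at day 14 and saline and silica at day 28. The study asked how silica alters the lung at the level of RNA and protein. Titles of the silica arrays give the dose as 50 mg/kg. For the arrays of day 14, title and time point say 14 days, while the description and the treatment protocol say 28 days. The protocol text is shared by all arrays. The title and time point were followed. The methods describe only rats killed on day 28, and state that their lungs were selected by histology. The rats' ages were not given in the sources used here.

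Annexins are a family of proteins that bind to negatively charged phospholipids in membranes when calcium is present. Several of them act in pairs with small S100 proteins, and the pair of annexin A2 and S100a10 binds the end of Ahnak and carries it to the inner face of the plasma membrane. Anxa3 is a small annexin described in granules of phagocytes and in lung epithelium, Anxa8 is an annexin of epithelia that is linked to late endosomes, and Ahnak is a very large protein built mostly of short repeats, abundant in epithelial and endothelial cells. In the lung, thin alveolar type I cells and the capillary endothelium form the surface for gas exchange and are rich in caveolae, the small pits of the plasma membrane.

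The probes are shown because each gene rests on 1 of them. For both annexins the first 30 of 60 bases are printed, and for Ahnak all 60. They are written 5′ to 3′, as the array files give them. The capitals in the Ahnak probe mark a run of 7 bases that occurs in it more than once.
Anxa3 (probe A_44_P325508): aagacctactaatgattttttatttggctt
Anxa8 (probe A_42_P471653): acactcatttaacagaaattgttaggctgt
Ahnak (probe CUST_R2_04361): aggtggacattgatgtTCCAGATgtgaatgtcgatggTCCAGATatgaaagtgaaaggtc
No other probe of the array (0 for each gene) shared a run of 20 bases with any of these probes. RefSeq places Anxa3 on chromosome 14, Anxa8 on chromosome 16 and Ahnak on chromosome 1.

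The upstream sequences are shown because the 3 genes were lower together in the silica groups, and they allow a look at which short motifs the genes share. They come from RefSeq with the assembly GRCr8. The bases printed are those of the window from 250 bases before to 50 after the start that lie before the annotated gene. All 3 genes were matched by symbol. Capitals mark the motifs named after the sequences.
Anxa3 (chr14:13085679-13085847, minus strand): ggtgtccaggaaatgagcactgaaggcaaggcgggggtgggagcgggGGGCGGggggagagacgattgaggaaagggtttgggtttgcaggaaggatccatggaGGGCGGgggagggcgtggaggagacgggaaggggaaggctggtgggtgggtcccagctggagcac
Anxa8 (chr16:9403137-9403266, plus strand): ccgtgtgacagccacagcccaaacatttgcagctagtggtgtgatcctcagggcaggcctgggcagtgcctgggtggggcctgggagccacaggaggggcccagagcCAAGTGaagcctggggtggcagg
Ahnak (chr1:215311104-215311288, plus strand): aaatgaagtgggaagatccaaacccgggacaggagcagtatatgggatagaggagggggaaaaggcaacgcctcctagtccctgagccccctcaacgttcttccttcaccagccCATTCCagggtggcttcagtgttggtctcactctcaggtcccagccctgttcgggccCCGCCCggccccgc
These motifs were searched on both strands of the whole 300-base window. The GC box GGGCGG, the core bound by Sp1 and related factors, was found 3 times for Anxa3 and 4 times for Ahnak, and 0 times for Anxa8. It occurred in 33.1% of 33469 rat promoters of the same length. The motif CATTCC, the core bound by TEAD factors, occurred 2 times for Anxa8, 1 time for Ahnak and 0 times for Anxa3, against 14.2% of promoters with at least 1 match. The letters CAAGTG, a core of sites for the lung factor NKX2-1, occurred 1 time each for Anxa3 and Anxa8 and 0 times for Ahnak, with 14.1% of promoters holding them. The AP-1 site TGACTCA occurred in none of the 3 windows (0 matches each) and in 4.6% of promoters. No motif of these was present for all 3 genes. The GC content of the window was 65.3% for Anxa3, 60.0% for Anxa8 and 66.3% for Ahnak, above the median of 51.7% over all promoters. A match describes letters in a window and no binding was measured.

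Between 60.5% and 69.5% of the probes on an array were well above background, by the scanner software's own flag. The lowest shares were those of silica at day 28 (60.5% to 61.1%). No spot was saturated. The arrays lay on 2 slides. All 3 silica arrays of day 28 shared slide 1 with a single saline array of that day, replicate 1. Slide 2 carried the remaining 8, among them all arrays of day 14. Slide and treatment thus overlapped at day 28, and only that saline array ties them together. Its share was 63.3%, above those of the silica arrays on its slide and below those of all slide 2 arrays (64.6% to 69.5%). The low shares at day 28 therefore went with slide 1 as well as with silica, and the part of each was not tested. No array repeated another of its group, since the median absolute difference over the 12 pairs of arrays within groups lay between 0.161 and 0.292 on the log2 scale.

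All 3 probes were well above background on all 12 arrays, each with 1 spot per array. The Anxa3 probe was the dimmest, at 3.68 to 38.07 times the lowest signal that counted as well above background on its array. The Anxa8 probe lay at 48.01 to 341.45 times that signal. The Ahnak probe was among the brightest of the array, at 619.74 to 2461.89 times, and 0.467% of the probes tested at day 14 were brighter. Levels of different probes were not compared as amounts of RNA, because probes differ in how well they bind. The values that follow are log2 signals after quantile normalization, which gives every array the same distribution of values, so that 1 unit is a doubling. In whole lung, fewer cells of a type and less RNA per cell cannot be told apart.

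At day 14 all 3 genes were lower in the silica group, Anxa3 by 2.56-fold, Anxa8 by 2.02-fold and Ahnak by 1.71-fold. Of the 3 members, 3 were downregulated in limma, a linear model that shares the estimate of spread across probes, with 0.05 as the highest p accepted after Benjamini-Hochberg adjustment. Over all 33615 probes tested, 4.77% were downregulated by the same rule. The members came from a list called at day 28, for which that share is a low standard. Among 584 named probes lower at day 28, 48.6% were downregulated at day 14 and 97.4% had a difference below 0. Anxa3 and Anxa8 (2 of 3) also changed by at least 2-fold, against 2.31% of all probes. For the 3 members, every silica array lay below every saline array, which was so for 18.9% of all probes. These calls were close to the threshold. Under 6 other ways of processing or fitting the arrays, the call held in 4 for Anxa3, in 3 for Anxa8 and in 3 for Ahnak.

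Anxa3 at day 14 had log2 signals of 8.51, 8.09 and 8.46 in saline replicates 1, 2 and 3. In silica replicates 1, 2 and 3 they were 6.33, 7.62 and 7.05. The silica arrays all lay below the saline arrays, the smallest gap was 0.47, and silica replicate 1 was the lowest of the 6. The group means were 8.35 ± 0.23 (SD, n = 3) for saline and 7.0 ± 0.64 (SD, n = 3) for silica. The log2 difference was -1.36 (SE 0.31, 95% interval -2.09 to -0.62), with an adjusted p of 0.0413 in limma. As a fold this is 2.56, with an interval of 1.54 to 4.26. With another background correction (normexp) the difference was -1 (adjusted p = 0.0203 in limma). The adjusted p was 0.117 with no filter on dim probes. The call was also lost without saline replicate 1, 2 or 3 or without silica replicate 3. Over all arrays left out 1 at a time, the difference ran from -1.66 to -1.02 and the adjusted p from 0.0213 to 0.139.

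Anxa8 at day 14 was the tightest of the 3 genes within the saline group. Its log2 signals there were 11.18, 11.22 and 11.32, with a mean of 11.24 ± 0.07 (SD, n = 3). In silica replicates 1, 2 and 3 they were 9.66, 10.34 and 10.67, with a mean of 10.23 ± 0.51 (SD, n = 3). The groups did not overlap, the smallest gap was 0.51, and silica replicate 1 was again the lowest. The spread of the silica arrays exceeded that of the saline arrays in this sample of 3 against 3, and this was not tested. The log2 difference was -1.01 (SE 0.25, 95% interval -1.60 to -0.43), with an adjusted p of 0.0484 in limma. As a fold this is 2.02, with an interval of 1.34 to 3.03. The adjusted p was 0.0623 when each array was scaled to its 75th percentile in place of quantile normalization, and 0.124 with no filter on dim probes. The call was also lost without saline replicate 1, 2 or 3 or without silica replicate 2. With 1 array left out at a time the difference ran from -1.23 to -0.73 and the adjusted p from 0.0452 to 0.155.

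Ahnak at day 14 had log2 signals of 14.71, 14.52 and 14.65 in saline replicates 1, 2 and 3. In the silica replicates they were 13.65, 13.99 and 13.94. The groups were separated by a gap of 0.54, and silica replicate 1 was the lowest array, as for both annexins. The means were 14.63 ± 0.10 (SD, n = 3) for saline and 13.86 ± 0.18 (SD, n = 3) for silica. The log2 difference was -0.77 (SE 0.15, 95% interval -1.11 to -0.43), with an adjusted p of 0.0265 in limma. As a fold this is 1.71, with an interval of 1.34 to 2.17. Ahnak thus had the smallest difference and the smallest standard error of the 3 genes.

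Of the 3 values, that of Ahnak depended most on the normalization between arrays. With each array scaled to its 75th percentile, the difference at day 14 was -0.41 and the adjusted p was 0.116. The brightest 1% of the tested probes, 337 probes, had a median difference of -0.08 after quantile normalization and 0.23 after scaling to the 75th percentile. Ahnak lay within that brightest 1%, whereas 37.6% of the tested probes were brighter than Anxa3 and 5.74% brighter than Anxa8. The part of this in the Ahnak result was not tested. The Ahnak call was also lost with no filter on dim probes (adjusted p = 0.0615 in limma), without saline replicate 1, 2 or 3, and without silica replicate 3. With 1 array left out at a time its difference ran from -0.84 to -0.64 and the adjusted p from 0.0315 to 0.106.

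**Figure D1:**
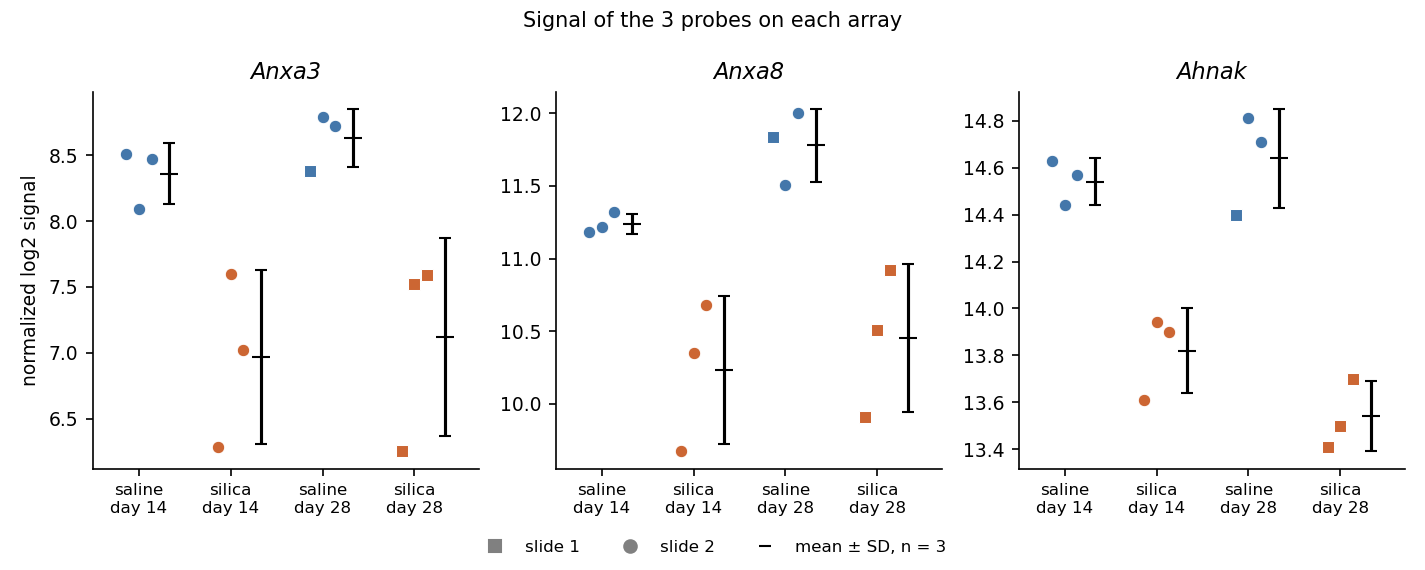
Normalized log2 signal (vertical axis, its own range in each panel) of Anxa3, Anxa8 and Ahnak on each of the 12 arrays, with all arrays normalized together. Squares are arrays of slide 1, circles arrays of slide 2, and bars give the mean ± SD of 3 rats. In every panel the 3 silica arrays of a day lie below the 3 saline arrays of that day.

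At day 28 the 3 genes were again lower in the silica group, by 2.91-fold for Anxa3, 2.50-fold for Anxa8 and 2.09-fold for Ahnak. This contrast had a part in choosing the members and carries no test. Every silica array lay below every saline array for 3 of 3 members, and for 24.2% of the 32097 probes tested at day 28. Of all probes 14.2% were downregulated at the adjusted p, and 4.74% at the adjusted p with at least a 2-fold change. Nothing is read from these shares about the members, since the contrast was used to choose them.

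Anxa3 at day 28 had log2 signals of 8.38, 8.79 and 8.73 in saline replicates 1, 2 and 3 and of 6.20, 7.50 and 7.58 in the silica replicates. Silica replicate 1 stood apart below the other silica arrays, and the groups were separated by a gap of 0.80. The means were 8.63 ± 0.22 (SD, n = 3) and 7.10 ± 0.77 (SD, n = 3), and the log2 difference was -1.54 (SE 0.37, 95% interval -2.42 to -0.65). Within slide 1, the difference of the 3 silica arrays from saline replicate 1 was -1.28. A fit with slide as a block gave -1.28 as well (SE 0.55), since only slide 1 holds both groups. With the normexp background correction the difference was -1.17 (SE 0.23).

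Anxa8 at day 28 had log2 signals of 11.83, 11.51 and 11.98 in the saline replicates and of 9.91, 10.52 and 10.92 in the silica replicates. The groups did not overlap and the gap was 0.59. The means were 11.77 ± 0.24 (SD, n = 3) and 10.45 ± 0.51 (SD, n = 3), and the log2 difference was -1.32 (SE 0.27, 95% interval -1.96 to -0.68). Within slide 1 it was -1.38, and with slide as a block it was -1.38 (SE 0.41). The saline arrays of slide 2 differed from that of slide 1 by -0.08, so that for Anxa8 the value with both slides and the value within a slide were close.

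Ahnak at day 28 had log2 signals of 14.33, 14.73 and 14.63 in the saline replicates and of 13.37, 13.46 and 13.66 in the silica replicates. The gap between the groups was 0.67. The means were 14.56 ± 0.21 (SD, n = 3) and 13.50 ± 0.15 (SD, n = 3), and the log2 difference was -1.06 (SE 0.15, 95% interval -1.41 to -0.71). Within slide 1 it was -0.83, since saline replicate 1 was the lowest saline array. The saline arrays of slide 2 exceeded it by 0.36 for Ahnak and by 0.38 for Anxa3. Scaled to the 75th percentile, the Ahnak difference at day 28 was -0.84.

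**Figure D2:**
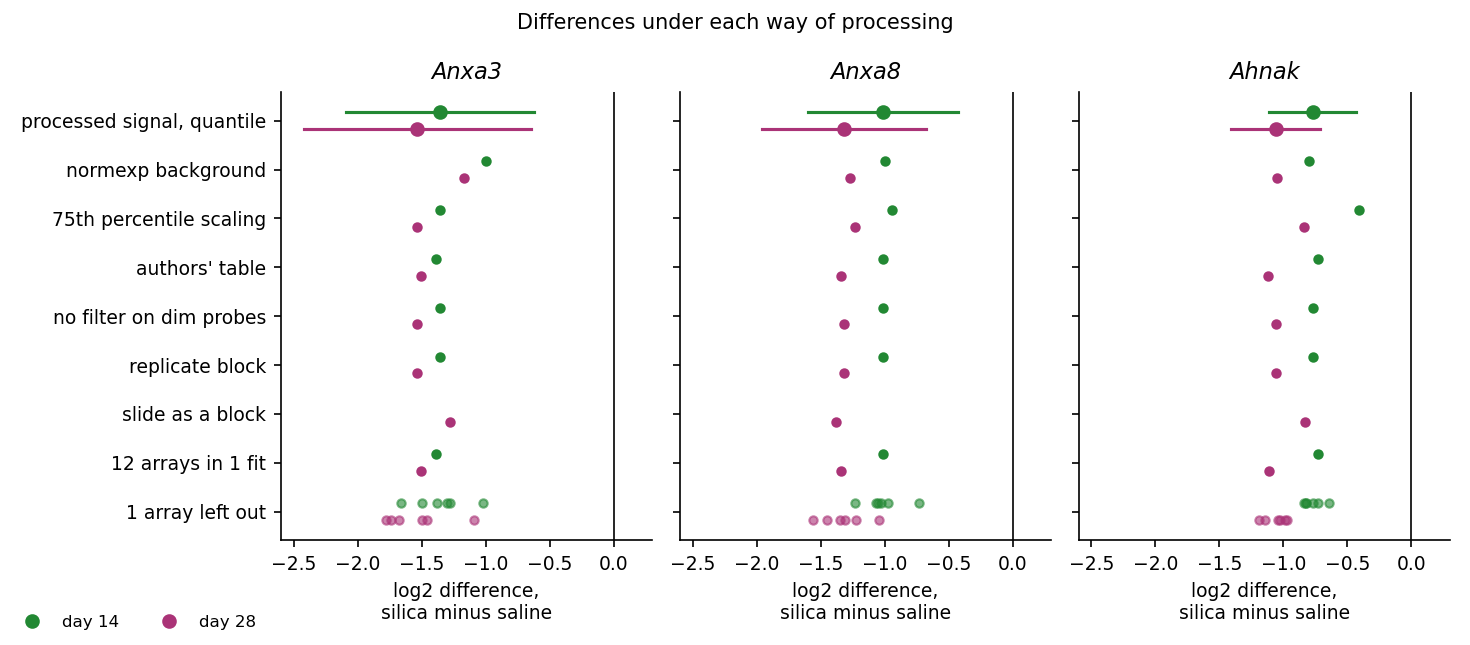
Log2 difference, silica minus saline (horizontal axis), of each gene at day 14 and day 28 under each way of processing (vertical axis), with the 95% interval drawn for the first setting and the last line giving 1 point for each array left out. All points lie below 0, between -1.78 and -0.41, and Ahnak at day 14 comes nearest to 0 when arrays are scaled to their 75th percentile.

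The differences at day 14 were 88.1% of those at day 28 for Anxa3, 76.7% for Anxa8 and 72.5% for Ahnak, each as a ratio of log2 differences. For the change between the days, all 12 arrays were normalized together. The difference at day 28 minus that at day 14 was -0.12 (SE 0.54, 95% interval -1.30 to 1.06) for Anxa3. It was -0.33 (SE 0.40, 95% interval -1.21 to 0.55) for Anxa8. It was -0.38 (SE 0.20, 95% interval -0.83 to 0.07) for Ahnak. All 3 intervals include 0 and remain wide, so that neither a growing nor a shrinking difference between the days could be shown with 3 rats per group. Across the array, 0.0% of 34097 probes (0 probes) passed an adjusted p of 0.05 in limma for this contrast, while 3386 had an unadjusted p of at most 0.05.

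The levels by group, over the 12 arrays normalized together, were ordered by treatment first and by day second. The highest mean of Anxa3 was 8.63 in saline at day 28, followed by saline at day 14 (8.36), silica at day 28 (7.12) and silica at day 14 (6.97). The order was the same for Anxa8, with 11.78, 11.24, 10.45 and 10.23. For Ahnak the order was saline at day 28 (14.64), saline at day 14 (14.54), silica at day 14 (13.82) and silica at day 28 (13.54). Neighbours of the same treatment differed by 0.27 in saline and 0.15 in silica for Anxa3. They differed by 0.54 and 0.22 for Anxa8, and by 0.10 and -0.28 for Ahnak (day 28 minus day 14). The ranges of both days overlapped in each of these except in saline for Anxa8, where the highest array of day 14 was at 11.32 and the lowest of day 28 at 11.51. For all 3 genes, the lowest saline array of either day was above the highest silica array of either day. The difference between days within slide 2, with saline replicates 2 and 3 of day 28, was 0.40 for Anxa3, 0.51 for Anxa8 and 0.22 for Ahnak.

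Within the silica groups the 3 genes had their lowest value in the same rat. Silica replicate 1 was the lowest of its group for all 3 genes at both days. Its Anxa3 signal deviated from the group mean by -0.69 at day 14 and by -0.87 at day 28. For Anxa8 the deviations were -0.56 and -0.54, and for Ahnak -0.20 and -0.13. Replicate 1 at day 14 and replicate 1 at day 28 are different rats. The share of all probes, or of the named probes lower at day 28, with their lowest silica value in replicate 1 was not computed. The pattern is therefore not read as particular to these 3 genes. In the saline groups the deviations of Anxa3 and Ahnak had the same sign in each of the 6 rats, while Anxa8 had the opposite sign to both in 3 of these 6 rats. These were replicate 1 of day 14 (-0.06 for Anxa8, beside 0.16 and 0.08 for Anxa3 and Ahnak), replicate 1 of day 28 (0.06, beside -0.25 and -0.24) and replicate 2 of day 28 (-0.27, beside 0.16 and 0.17). The correlation of log2 signals over the 12 arrays was 0.92 for Anxa3 with Anxa8, 0.90 for Anxa3 with Ahnak and 0.85 for Anxa8 with Ahnak. These values hold the shift between the treatment groups. With the group means removed they were 0.73, 0.77 and 0.52. The points share arrays and their normalization, and the correlations are a description over 12 arrays.

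**Figure D3:**
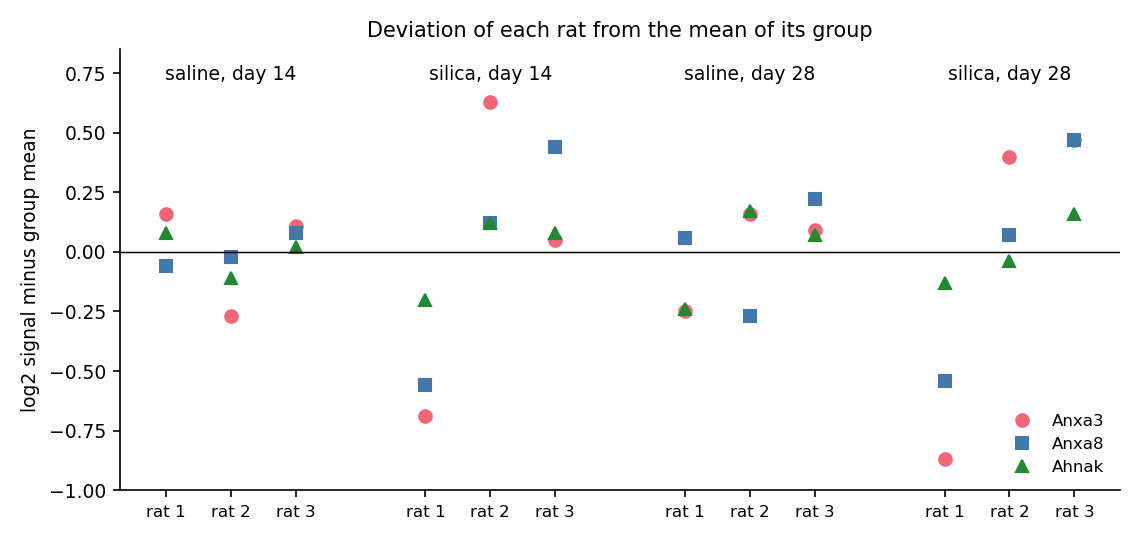
Deviation of each rat's log2 signal from the mean of its group of 3 (vertical axis) for Anxa3, Anxa8 and Ahnak, with the rats ordered by group on the horizontal axis. Silica rat 1 lies lowest of its group for all 3 genes at both days, down to -0.87 for Anxa3 at day 28.

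The genes most like each member were taken from 833 named genes well above background on every array, by Pearson's r over the 12 arrays. For Anxa3 they were Slc6a4, the serotonin transporter (r = 0.984), Cryab, a small heat shock protein (0.983), and Jam2, a junctional adhesion molecule (0.982). At day 14 Slc6a4 fell by 1.61 on the log2 scale (adjusted p = 0.0379 in limma) and Jam2 fell by 1.09 (adjusted p = 0.0468), whereas the difference of Cryab was -1.06 (adjusted p = 0.0663). For Anxa8 they were Cyp2b2, a cytochrome P450 (0.990), Krt76, a keratin (0.983), and Tns1, a protein of focal adhesions (0.979). Of these Tns1 was downregulated at day 14 (log2 difference -1.03, adjusted p = 0.0345 in limma), while Cyp2b2 (-1.32, adjusted p = 0.0542) and Krt76 (-0.91, adjusted p = 0.0913) did not pass. For Ahnak they were Hs3st3b1, an enzyme of heparan sulfate synthesis (0.989), Cadm1, a cell adhesion molecule (0.988), and Mpp5, a scaffold of epithelial polarity (0.985). All 3 were downregulated at day 14, with log2 differences of -0.77 (adjusted p = 0.0331), -1.02 (adjusted p = 0.0193) and -0.96 (adjusted p = 0.0266) in limma. With group means removed, r to the member was 0.96, 0.94 and 0.94 for the genes of Anxa3, 0.97, 0.97 and 0.90 for those of Anxa8, and 0.93, 0.88 and 0.92 for those of Ahnak. All named genes had been called at day 28, so a high r over these arrays is common to them. The choice by r also used the arrays of day 14. A fall like that of the member was thus in part fixed there by the choice, and the p-values of these genes are no separate result. The r with group means removed comes from the same arrays and was in part fixed too. Its usual value among named genes was not computed. Among the named probes lower at day 28, 48.6% were downregulated at day 14, and among all probes 4.77%.

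Among the named probes lower at day 28, by an adjusted p of at most 0.05 and at least 2-fold, 584 were also tested at day 14. Their median log2 difference was -1.03 at day 14 and -1.29 at day 28, whereas over all probes tested it was -0.01 and -0.02. At day 14 48.6% of the 584 probes (284) were downregulated at the adjusted p, and 97.4% (569) had a difference below 0. Of these probes, 18.8% had a difference at day 14 as low as that of Anxa3 or lower, 52.1% as low as that of Anxa8, and 76.5% as low as that of Ahnak. Anxa8 was thus near the middle of these probes, with Anxa3 below and Ahnak above it.

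Of 18 annexins, S100 proteins and relatives or partners of Ahnak, 3 had a named probe. The other annexins, Anxa2 included, were not analysed here. S100a10, the partner of annexin A2, had values of the opposite sign to the members. Its mean log2 signal was 9.87 in saline and 10.57 in silica at day 14, a difference of 0.70 (SE 0.20, adjusted p = 0.0722 in limma), and at day 28 the difference was 1.35. Prx, periaxin, a scaffold protein related to Ahnak, was downregulated at day 14 (log2 difference -1.31, SE 0.31, adjusted p = 0.042 in limma) and differed by -1.68 at day 28. S100b, a calcium-binding protein, had a difference of -0.94 at day 14 (adjusted p = 0.111 in limma) and its probe cleared the background on 9 of the 12 arrays. In this list 1 of 3 genes thus passed the test at day 14, with a lower value. By the same rule 4.77% of all probes were downregulated, and 48.6% of the named probes lower at day 28. The median difference of the list was -0.94, beside -0.01 over all probes tested and -1.03 over the named probes lower at day 28.

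Of 8 caveolar genes, 3 could be named, and each of the 3 was downregulated at day 14, as were 4.77% of all probes and 48.6% of the named probes that were lower at day 28. Cav1, the main coat protein of caveolae, fell by 1.57 on the log2 scale (adjusted p = 0.0295 in limma). Its partner Cav2 fell by 1.32 (adjusted p = 0.0416), and Ehd2, the ATPase at the neck of caveolae, fell by 0.90 (adjusted p = 0.0273). At day 28 their differences were -1.88, -1.59 and -1.06, beside -1.54, -1.32 and -1.06 for Anxa3, Anxa8 and Ahnak. The median of the list was -1.32 at day 14.

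Markers of lung cell types were set beside the 3 genes. Of 14 markers of alveolar type I cells, 8 were named, and 0 of these 8 passed the test at day 14, with a median difference of -1.18. Among the named probes lower at day 28, 48.6% were downregulated at day 14, and among all probes 4.77%. Sec14l3 had a difference of -2.0 (adjusted p = 0.0552 in limma), Rtkn2 of -1.42 (adjusted p = 0.0509) and Aqp5, a water channel of type I cells, of -0.96 (adjusted p = 0.141). All 8 differences were below 0 at day 28, with a median of -1.52. The summed signal of the 8 markers lay between 19.5% and 56.5% of the saline mean in the silica arrays of day 14, and between 20.1% and 45.6% at day 28. On saline arrays it lay between 85.2% and 109.6% at day 14 and between 92.0% and 113.6% at day 28.

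Of 20 endothelial markers, 12 were named and 9 of them were downregulated at day 14, with a median difference of -1.31, beside the same shares of 48.6% and 4.77%. Plvap, of the diaphragms of endothelial vesicles, fell by 2.07 (adjusted p = 0.0291 in limma), Car4, a carbonic anhydrase of lung capillaries, fell by 1.77 (adjusted p = 0.0317), and Cdh5, the cadherin of endothelial junctions, fell by 1.14 (adjusted p = 0.0288). The summed signal of the 12 markers was 27.3% to 56.1% of the saline mean on silica arrays of day 14 and 24.7% to 47.5% at day 28, against 88.0% to 108.3% and 90.6% to 110.2% on saline arrays. Of 12 macrophage markers, 6 were named and 5 of them were upregulated at day 14, with a median difference of 3.12. Trem2, a lipid receptor of macrophages, rose by 4.20 (adjusted p = 0.00228 in limma) and Cd68, a lysosomal protein, rose by 2.85 (adjusted p = 0.00383). The summed macrophage signal was 690.2% to 1043.3% of the saline mean on silica arrays of day 14 and 1039.9% to 1318.4% at day 28, against 77.5% to 131.4% and 92.8% to 107.2% on saline arrays. Among all probes 4.59% were upregulated at day 14, and the share among named probes higher at day 28 was not computed. Aif1, the macrophage marker that did not pass, had a difference of 1.27 (adjusted p = 0.103 in limma). In each summed signal the brightest probes weigh most, so it is not an even average over the markers.

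The named neutrophil marker, Il1r2 (1 of 7 listed), had a difference of 2.17 at day 14 (adjusted p = 0.0644 in limma). The named airway marker, Tppp3 of ciliated cells (1 of 6 listed), fell by 1.58 (adjusted p = 0.0372). Of 10 markers of alveolar type II cells 0 were named, so that these cells could not be followed here. The named cell type markers were well above background on all 12 arrays. Il1r2 was the dimmest of them in saline, with mean log2 signals of 4.6 at day 14 and 4.72 at day 28. All listed genes with a name had been called at day 28 by the authors, so the lists are not independent evidence of their direction. The part of a change in cell content in the values of Anxa3, Anxa8 and Ahnak was not tested.

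**Figure D4:**
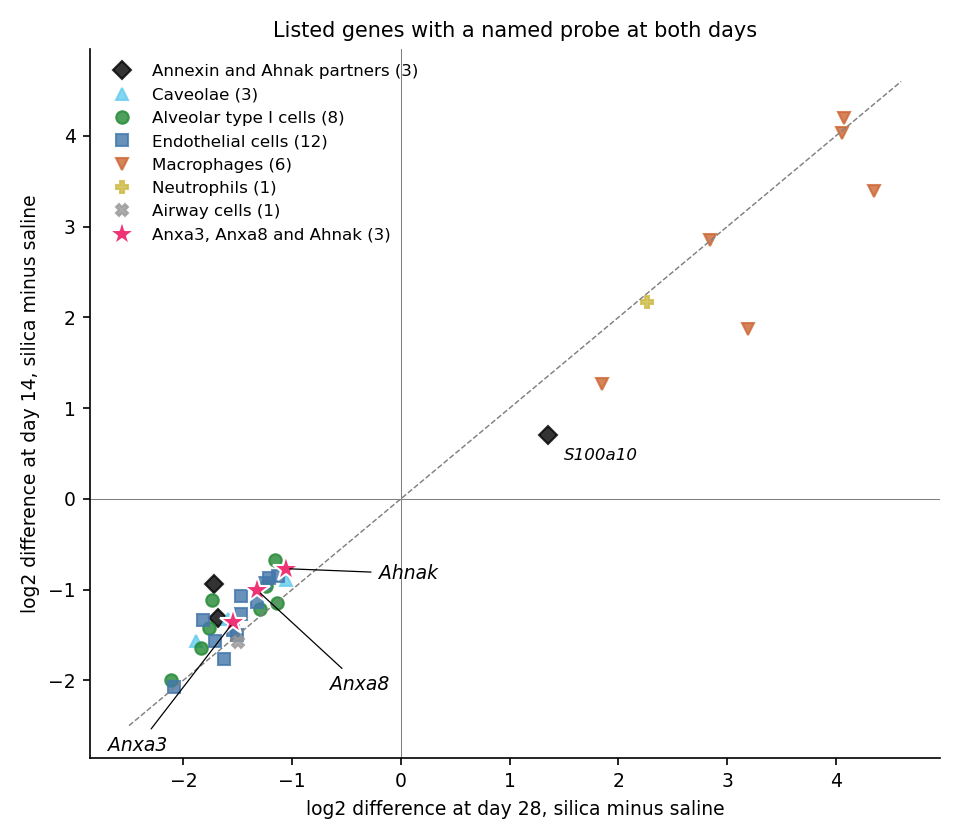
Log2 difference, silica minus saline, at day 28 (horizontal axis) and at day 14 (vertical axis) for Anxa3, Anxa8, Ahnak and the named genes of the lists, with the number of genes of each list in the key and a dashed line of equal differences. The 3 members lie below 0, as do the caveolar, type I and endothelial genes, the airway marker Tppp3, Prx and S100b. S100a10 lies above 0 (0.70 at day 14, 1.35 at day 28), as do the macrophage and neutrophil genes. All plotted genes had been called at day 28 by the authors.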

How the data were processed

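Each array was read by the authors with Agilent Feature Extraction 10.7.1.1, per the labels, and the deposited spot intensity is background-subtracted and corrected for gradients, but not normalized between arrays. A deposited log2 table, which per the authors' methods was quantile normalized in GeneSpring, served as an alternative. After removal of controls and outlier spots, spots of a probe were averaged, and log2 processed intensities were quantile normalized within each day (6 arrays), or across all 12 for the change between days. A probe entered the fit if some group had it well above background on each of its 3 arrays. Fits were made with limma 3.58.1 (lmFit, eBayes) in R 4.3.3, with Benjamini-Hochberg adjustment over all probes tested (33615 at day 14, 32097 at day 28, 34097 for the change between days). The fit was tested on simulated data. Tables were made with Python 3.11.15, pandas 2.3.3 and numpy 2.4.6, intervals with scipy 1.17.1, and plots with matplotlib 3.10.9.

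Groups follow the array titles. Each array was taken as 1 rat, the experimental unit of the study, and precision is limited by the number of arrays; with 3 against 3 an exact two-sided permutation test of 1 probe cannot go below p = 0.10. Gene names came from the study's probe annotation, held here in part (1279 probes), in which the probe sequences equal those of the array. Chromosomes of the members came from RefSeq. Genes named are the 3 members, the 3 genes most correlated with each, and listed genes with a named probe, taking the brightest probe per gene. The members and lists were chosen with earlier results of these data known. Protein values of the study were not used here.

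Alternatives were normexp background correction (offset 50), scaling to the 75th percentile, the authors' table, no filter on dim probes, the replicate number as a block, slide as a block, 12 arrays in 1 fit, no minimum fold, and each array left out. The values within slide 1, those with the slide 2 saline arrays, and those of the brightest probes were added after seeing the data.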

Additional observations from a re-analysis of the deposited data

How the results depend on the processing

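All differences of Anxa3, Anxa8 and Ahnak between silica and saline stayed below 0 at both days under every alternative run, but the calls at day 14 did not all hold. With normexp background correction, the authors' table and 12 arrays in 1 fit, all 3 genes passed an adjusted p of 0.05 in limma. With no filter on dim probes none of them passed in limma (Anxa3 -1.36, adjusted p = 0.117, Anxa8 -1.01, adjusted p = 0.124, Ahnak -0.77, adjusted p = 0.0615). There more probes were tested and the standard errors differed too (0.35, 0.27 and 0.13), and the part of each was not tested. With scaling to the 75th percentile Anxa8 (-0.94, adjusted p = 0.0623) and Ahnak (-0.41, 0.116) did not pass, and the cause was not tested. The replicate numbers did not pair the samples (correlation of deviations between same-numbered arrays -0.169 to 0.064 at both days), and with the replicate block the differences at day 14 were -1.36 (adjusted p = 0.0641), -1.01 (0.0516) and -0.77 (0.0615) for the 3 genes in the same order; the block gave 1534 called probes at day 14 and 2896 at day 28.

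With 1 array left out at a time, the differences at day 14 ran from -1.66 to -1.02 (Anxa3), -1.23 to -0.73 (Anxa8) and -0.84 to -0.64 (Ahnak), and each gene passed in 2 of 6 fits. At day 28 they ran from -1.78 to -1.09, -1.56 to -1.04 and -1.19 to -0.97. The difference between the days ran from -0.47 to 0.31, -0.60 to -0.06 and -0.50 to -0.29. Ahnak at day 28 was -0.84 with the 75th percentile and -0.83 with slide as a block or within slide 1, and its change between days was -0.14 with slide as a block; for Anxa3 that change was 0.13 with slide as a block, opposite in sign and within its standard error. With slide 2 saline arrays at day 28 it was -0.25, -0.30 and -0.50.

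With both an adjusted p up to 0.05 and a 2-fold change required, 1647 probes were called at day 14 (869 higher, 778 lower) and 3120 at day 28 (1597 higher, 1523 lower). Without the minimum fold the counts were 3147 and 9220, with normexp 708 (430 higher, 278 lower) and 1303 (795 higher, 508 lower), and with no filter at day 14 396 (298 higher, 98 lower). Leaving out 1 array gave 281 to 2338 at day 14, with 587, 281 and 304 without saline replicate 1, 2 or 3, and 2494 to 3764 at day 28. For the change between days the count of 0 became 1 with normexp, 1 with no filter, 4 with slide as a block, and 0 to 264 with 1 array left out, the highest without saline replicate 1 of day 28 (264).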
